A study of Arabidopsis thaliana with 8 samples.

Results

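Glutamine synthetase joins ammonium to glutamate and is the enzyme through which plants take inorganic nitrogen into amino acids. In Arabidopsis thaliana it is encoded by 6 genes, 5 for cytosolic isoforms (GLN1;1 to GLN1;5) and 1 for the plastid isoform GS2, and all 6 were found, by their locus identifiers, among the 27416 genes of the table. The cytosolic isoforms are known for primary assimilation in roots and for making glutamine for transport, whereas GS2 recaptures the ammonium that photorespiration releases in leaves and assimilates ammonium made by nitrite reduction. Work on the purified cytosolic enzymes has placed GLN1;1 and GLN1;4 among the forms with high affinity for ammonium and GLN1;2 and GLN1;3 among those with low affinity.

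Ribosome footprints, the mRNA fragments protected by translating ribosomes, had been sequenced from seedlings of the Col ecotype of 4 days grown in liquid Murashige and Skoog medium with sucrose and harvested 3 h after lights on. There were 4 root and 4 shoot libraries, 1 per tissue for each of 4 polysome extraction buffers, all with the same detergents, DTT, cycloheximide, which arrests ribosomes, and DNase. Buffer A had 50 mM KCl, 25 mM MgCl2 and 200 mM Tris, buffer B 40 mM KCl, 20 mM MgCl2 and 200 mM Tris, buffer C 30 mM KCl, 15 mM MgCl2 and 200 mM Tris, and buffer D 40 mM KCl, 20 mM MgCl2 and 100 mM Tris. The buffers served as repeats of a tissue. The labels name no separate plants or cultures, so a p-value reflects the spread between these libraries, which may be technical.

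Library totals were 1120218 to 3410266 counts in root and 3746348 to 4501213 in shoot. The 5 shoot markers (CAB1, CAB3, RBCS1A, RCA and GUN5) summed to 296.8 to 421 CPM in root and 44594 to 49941 CPM in shoot, and the 5 root markers (CASP1, ESB1, PRP3, EIR1 and the phosphate transporter AT5G43350) summed to 1729 to 2233 CPM in root and 74.0 to 160.2 CPM in shoot. Both sets were as the tissue labels say, and no marker was at 0 in any library. CPM, the unit of level, scales a count by library size and by TMM factors, and these were 1.17 to 1.22 in root and 0.830 to 0.849 in shoot. Levels combine mRNA abundance and translation. In these bulk tissues fewer cells of a type and less RNA per cell cannot be told apart. Coding lengths were not used here, so levels are compared for the same gene between libraries and not ranked between genes.

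The isoforms divided by tissue. The plastid isoform GS2 was 13.0-fold higher in shoot, while the cytosolic GLN1;2 was 4.26-fold and GLN1;1 1.52-fold higher in root. GLN1;3 and GLN1;4 did not pass the test, and GLN1;5 was near the limit of detection in both tissues. Of the 6 genes, 5 passed the filter on low counts and were tested. In edgeR's quasi-likelihood test, with Benjamini-Hochberg adjustment over 15664 genes and a threshold of 0.05, 2 of these were higher and 1 was lower in root. Over all genes tested, 40.3% were called, 17.8% higher and 22.6% lower in root, so tissue differences were common in the table. At an unadjusted p under 0.05 the figures were 3 isoforms and 47.2% of all genes. The median log2 fold change, root minus shoot, was 0.60 for the 5 isoforms and -0.12 for all genes tested.

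**Figure D1:**
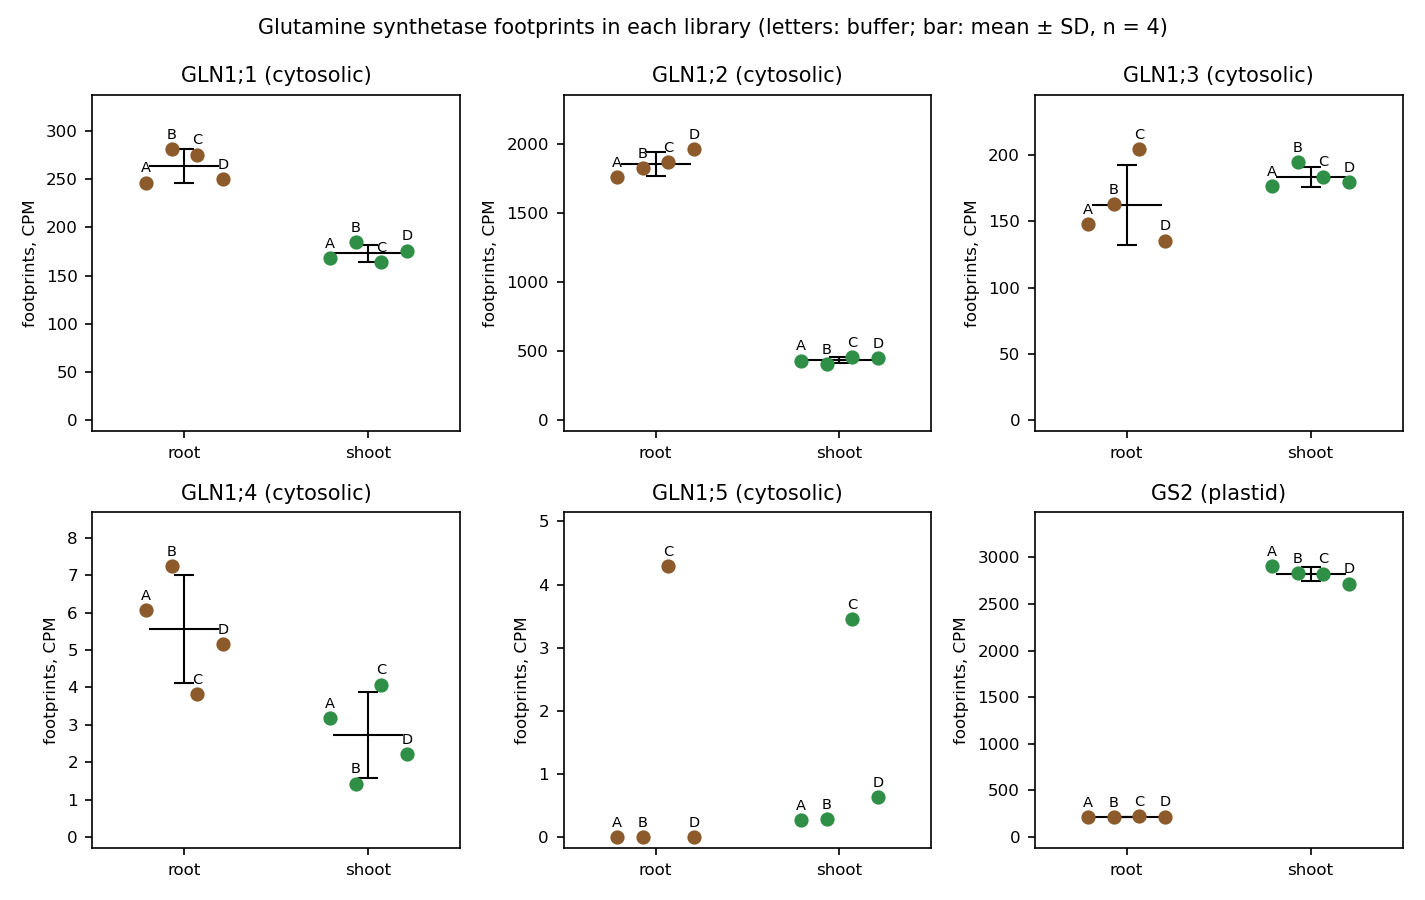
Footprints of each isoform in CPM (linear axis from 0, a separate scale in each panel) in the 4 root and 4 shoot libraries. Points are libraries, letters give the buffer and bars give the mean ± SD, omitted for the isoform with 0 counts in 3 libraries. Root points lie above shoot points in the panels of GLN1;1 and GLN1;2 and below them in that of GS2.

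GS2 (AT5G35630) is the plastid isoform, and its protein is also reported in mitochondria. Its level in root was 214 CPM in buffer A, 214 in B, 221 in C and 219 in D, from 297 to 846 counts. In shoot it was 2906 CPM in buffer A, 2831 in B, 2823 in C and 2717 in D, from 8568 to 10952 counts. All shoot libraries lay far above all root libraries, and the root libraries hardly differed among themselves. The means were 217 ± 3.79 CPM in root and 2819 ± 77.5 CPM in shoot (SD, n = 4 each). The log2 fold change, root minus shoot, was -3.70 ± 0.09 (SE, adjusted p = 4.18e-10, edgeR). The spread over root libraries, a coefficient of variation of 1.75%, was smaller than the counting error of the shallowest one, 5.80%.

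The root level of GS2 was 7.69% of its shoot level. The single shoot markers were at 0.464 to 1.78% of their shoot level in root, so GS2 kept a larger part of its shoot level in root than any of these 5 genes. Ferredoxin-dependent glutamate synthase GLU1 (AT5G04140), the plastid enzyme that turns the product of GS2 into glutamate, was at 0.422% of its shoot level in root. Among the genes around the enzyme listed below, those called lower in root had 0.389 to 44.2% of their shoot level there. The value of GS2 lay within this range and was not particular to it.

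GLN1;2 (AT1G66200, RefSeq symbol GSR2) is the cytosolic isoform known from vascular tissue and for its rise with ammonium supply. The root libraries held 2664 to 6958 of its counts and the shoot libraries 1415 to 1616. Its root level was 1758 CPM in buffer A, 1822 in B, 1866 in C and 1961 in D. Its shoot level was 429 CPM in buffer A, 404 in B, 457 in C and 449 in D. The tissues did not overlap, and the lowest root library stood well above the highest shoot library. Means were 1852 ± 85.3 CPM in root and 435 ± 23.5 CPM in shoot (SD, n = 4 each), and the log2 fold change was 2.09 ± 0.09 (SE, adjusted p = 1.93e-08, edgeR). In shoot it kept 23.5% of its root level, against 2.39 to 7.06% for the 5 root markers. The genes around the enzyme, listed below, that were called higher in root kept 9.39 to 65.6%, so the value of GLN1;2 was not particular to it.

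GLN1;1 (AT5G37600, RefSeq symbol GSR 1) is a high-affinity form associated with the root surface. In root it had 247 CPM in buffer A, 281 in B, 276 in C and 250 in D, and in shoot 168 CPM in A, 185 in B, 164 in C and 176 in D. Root was above shoot in every buffer and the ranges did not overlap, although the gap was small beside that of the isoform above. The counts behind these values were 340 to 976 in root and 523 to 648 in shoot. The means were 263 ± 17.6 and 173 ± 9.09 CPM (SD, n = 4 each), and the log2 fold change was 0.60 ± 0.12 (SE, adjusted p = 0.00212, edgeR). Scaled by library totals the means were 310.2 ± 19.5 and 145 ± 6.40 CPM, and the log2 fold change was 1.10 (adjusted p = 1.87e-05).

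GLN1;3 (AT3G17820) is a low-affinity form known from the root pericycle and the phloem. It had 148 CPM in root A, 163 in root B, 205 in root C and 135 in root D, and 177 CPM in shoot A, 195 in shoot B, 184 in shoot C and 179.5 in shoot D. Counts were 184 to 585 in root and 566 to 683 in shoot. Root C stood above all shoot libraries and the other root libraries below them, so the tissues overlapped. The log2 fold change was -0.19 ± 0.14 (SE, adjusted p = 0.323, edgeR). The scaling set its sign. Scaling by library totals in place of TMM factors moved the median of all genes by 0.49, and the value was then 0.31 (adjusted p = 0.0860) with all root libraries above all shoot libraries, at 191 ± 33.2 against 154 ± 5.44 CPM (SD, n = 4 each).

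GLN1;4 (AT5G16570), a high-affinity form best known from senescing leaves, rested on few counts, 53 over the root libraries and 37 over the shoot libraries. It had 6.06 CPM in root A, 7.24 in B, 3.81 in C and 5.15 in D, and 3.18 CPM in shoot A, 1.42 in B, 4.07 in C and 2.22 in D. Shoot C was above root C, and the tissues overlapped, but scaled by library totals all root libraries lay above all shoot libraries. The log2 fold change was 1.06 ± 0.84 (SE, adjusted p = 0.357, edgeR). At this depth no difference between the tissues was detected, which does not show that the levels were equal.

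GLN1;5 (AT1G48470), known from seeds, did not pass the filter. In root it had 9 counts in buffer C and 0 in the other buffers. In shoot it had 11 counts in buffer C, 2 in buffer D and 1 in each of the others. Buffer C was the highest library in both tissues, and it held 20 of the 24 counts of the gene against 23.0% of the counts of all genes. Root C corresponds to 4.29 CPM (exact 95% Poisson interval 1.96 to 8.15) and shoot C to 3.45 CPM (1.72 to 6.17). The 0 counts allow up to 0.758 CPM in root A, 1.55 in root B and 2.21 in root D, taking 3 counts as a one-sided limit, and the upper ends of the exact interval used for buffer C are 0.932, 1.91 and 2.72 CPM. These intervals and limits cover counting error only. Of the genes tested, 6.47% had buffer C highest in both tissues, against 5.94% for buffer A, 5.87% for B and 6.74% for D. These shares count rank order alone, so they cannot assess the size of the excess of GLN1;5 in buffer C. Fitted without the filter, the gene had an unadjusted p of 0.257 for any difference between buffers (edgeR, adjusted p = 1.00).

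Levels scaled by TMM did not overlap between the tissues for 3 of the 6 isoforms, those called by the test. The same held for 45.0% of all genes tested, 19.8% with root above and 25.3% with root below. Scaled by library totals, 5 of the 6 did not overlap, and GLN1;5 was the exception. On that scale 50.1% of all genes tested did not overlap, 31.8% with root above and 18.3% with root below.

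**Figure D2:**
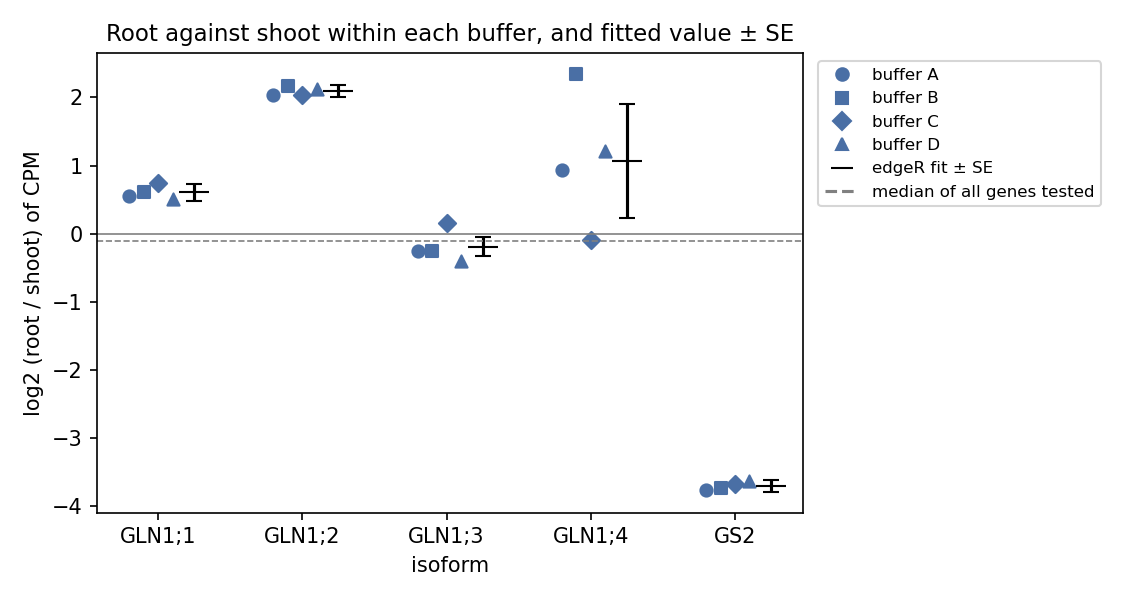
Log2 ratio of root to shoot CPM within each buffer (blue symbols) and the edgeR estimate ± SE (black) for the 5 isoforms tested. The dashed line is the median of all genes tested, -0.12. The 4 buffers lie close together for the 3 isoforms called, straddle 0 for GLN1;3 and scatter for GLN1;4.

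The tissue difference could be followed within each buffer. For GS2 the log2 ratio of root to shoot was -3.77 in buffer A, -3.73 in B, -3.67 in C and -3.64 in D. For GLN1;2 it was 2.04, 2.17, 2.03 and 2.13 in the same order, and for GLN1;1 it was 0.55, 0.61, 0.75 and 0.51. These 3 genes kept their sign in every buffer. GLN1;3 had -0.26, -0.26, 0.16 and -0.41, and GLN1;4 had 0.93, 2.35, -0.10 and 1.21, so with TMM the sign in buffer C was opposite in both. Scaled by library totals, all root libraries lay above all shoot libraries for both genes. The value of GLN1;4 in buffer C rests on 8 counts in root and 13 in shoot.

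Shares within the family do not depend on the scaling between libraries. They are shares of counts without correction for coding length, so each isoform is compared with itself across tissues, and no test was made of them. GS2 held 9.01% of the family's counts in root A (exact Clopper-Pearson 95% interval 8.44 to 9.61), 8.59% in root B, 8.59% in root C and 8.51% in root D. In shoot it held 78.9%, 78.3%, 77.7% and 77.1% in the same order of buffers, with intervals from 76.3 to 79.6%. The mean share of GS2 was thus 8.67 ± 0.228% in root and 78.0 ± 0.775% in shoot (SD, n = 4 each). The share of GLN1;2 was 74.1%, 73.3%, 72.4% and 76.3% in the root libraries and 11.6%, 11.2%, 12.6% and 12.7% in the shoot libraries, buffers in that order. Over the libraries this gave 74.0 ± 1.65% in root and 12.0 ± 0.744% in shoot. The share of GLN1;1 was 10.5 ± 0.655% in root and 4.79 ± 0.298% in shoot, without overlap. GLN1;3 was at 6.50 ± 1.11% in root and 5.08 ± 0.239% in shoot, and these ranges overlapped.

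**Figure D3:**
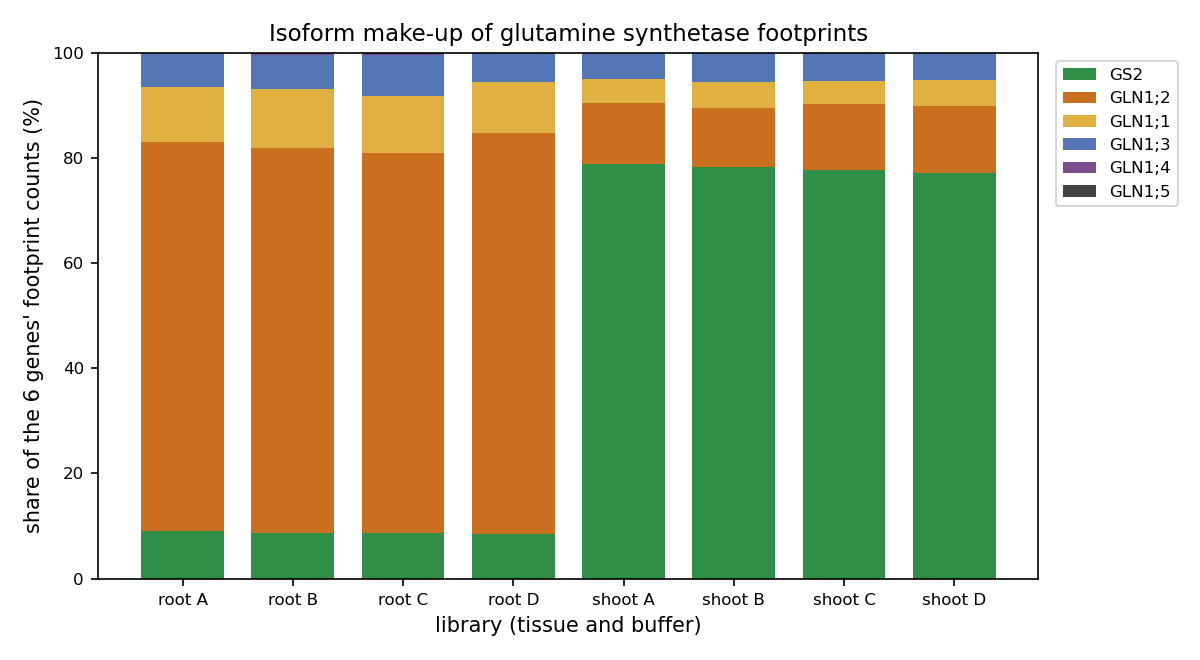
Share of each isoform in the summed footprint counts of the 6 genes (linear axis, percent) in each library, without correction for coding length. GLN1;2 makes up 72.4 to 76.3% in root and GS2 77.1 to 78.9% in shoot, and the libraries of a tissue look alike.

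Among the cytosolic isoforms alone the make-up also differed between the tissues. GLN1;2 held 81.1 ± 1.79% of cytosolic counts in root and 54.6 ± 2.15% in shoot (SD, n = 4 each). The other forms were larger parts of the cytosolic counts in shoot, GLN1;1 going from 11.5 ± 0.718% to 21.8 ± 1.36% and GLN1;3 from 7.12 ± 1.21% to 23.1 ± 1.14%. The ranges of root and shoot did not overlap for any of these 3. Their shares are parts of the same sum and move together, so a larger share need not mean a higher level. GLN1;1 had a lower level in shoot, at 173 against 263 CPM. In pairs, the ratio of GLN1;2 to GLN1;1 counts was 6.48 to 7.84 in root and 2.19 to 2.79 in shoot. The ratio of GLN1;2 to GLN1;3 was 11.7 ± 2.21 in root and 2.37 ± 0.200 in shoot (SD, n = 4 each), again without overlap. The ratio of GLN1;3 to GLN1;1 was 0.541 to 0.742 in root and 1.02 to 1.12 in shoot, so these isoforms, too, stood in another proportion in each tissue. How reads matching several cytosolic genes were counted is not given in the sources used here, so part of the reads of one isoform may stand under another.

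The 6 genes together took a similar part of each library. They held 0.275 to 0.312% of all counts in root and 0.297 to 0.308% in shoot, and these ranges overlapped. The cytosolic genes held 0.251 to 0.285% in root and 0.0648 to 0.0686% in shoot. Scaled by TMM the family sum was 2501 ± 95.2 CPM in root and 3615 ± 66.5 CPM in shoot (SD, n = 4 each) and did not overlap, so a tissue difference of the sum rests on the scaling. The cytosolic sum was higher in root on both scales, at 2284 ± 92.1 against 795 ± 16.8 CPM with TMM and 2691 ± 145 against 666 ± 19.3 CPM with library totals.

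The buffers had been varied to study the precision of footprints, which counts per gene do not show, but the levels of the isoforms could be compared between them. None of the 5 isoforms tested differed between buffers at an adjusted p under 0.05 in edgeR or DESeq2, and none had an unadjusted p under 0.05 in edgeR. DESeq2 gave GLN1;4 no adjusted p for buffer D minus B. Of all genes, 0.0575% were called for any of the 4 buffers in edgeR and 0.772% had an unadjusted p under 0.05. That is below the share which a threshold of 0.05 would give if no gene differed, so the test was cautious. The absence of a call does not show that levels were equal.

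The contrasts are given in the order GLN1;1, GLN1;2, GLN1;3, GLN1;4 and GS2. From the highest to the lowest salt, buffer A minus C, the log2 differences were -0.06 ± 0.17, -0.09 ± 0.12, -0.27 ± 0.20, 0.05 ± 1.18 and -0.0024 ± 0.11 (SE). That comparison called 0.00% of all genes in edgeR and likewise 0 genes in DESeq2, with 253 (1.62%) and 282 genes at an unadjusted p under 0.05. Each difference was below its SE except that of GLN1;3.

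Lower Tris, buffer D minus B, gave log2 differences of -0.12 ± 0.17, 0.13 ± 0.12, -0.18 ± 0.20, -0.07 ± 1.21 and -0.02 ± 0.11 in the same order (SE). Here 0.0447% of all genes were called and 1.99% had an unadjusted p under 0.05. A trend with salt that differed between root and shoot was tested per 10 mM MgCl2, KCl rising in step. On the log2 scale it was -0.20 ± 0.35, 0.0056 ± 0.25, -0.41 ± 0.37, 0.98 ± 2.01 and -0.09 ± 0.23, root minus shoot (SE). No isoform was called, and 0.00% of all genes were, with 618 genes (3.95%) at an unadjusted p under 0.05 in edgeR. The SE of GLN1;4, which rested on few counts, exceeded 1 in each of these 3 contrasts, so that its tests hold little information.

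Genes around the enzyme were followed in lists of 33 genes, of which 29 were tested. In root 10 were higher and 16 lower than in shoot, and 3 did not pass. Of all genes tested, 40.3% were called, 17.8% higher and 22.6% lower in root, and the counts of each list stand beside these shares. The genes were chosen for their role with earlier results known. The median log2 fold change was -1.31, against -0.12 for all genes tested.

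**Figure D4:**
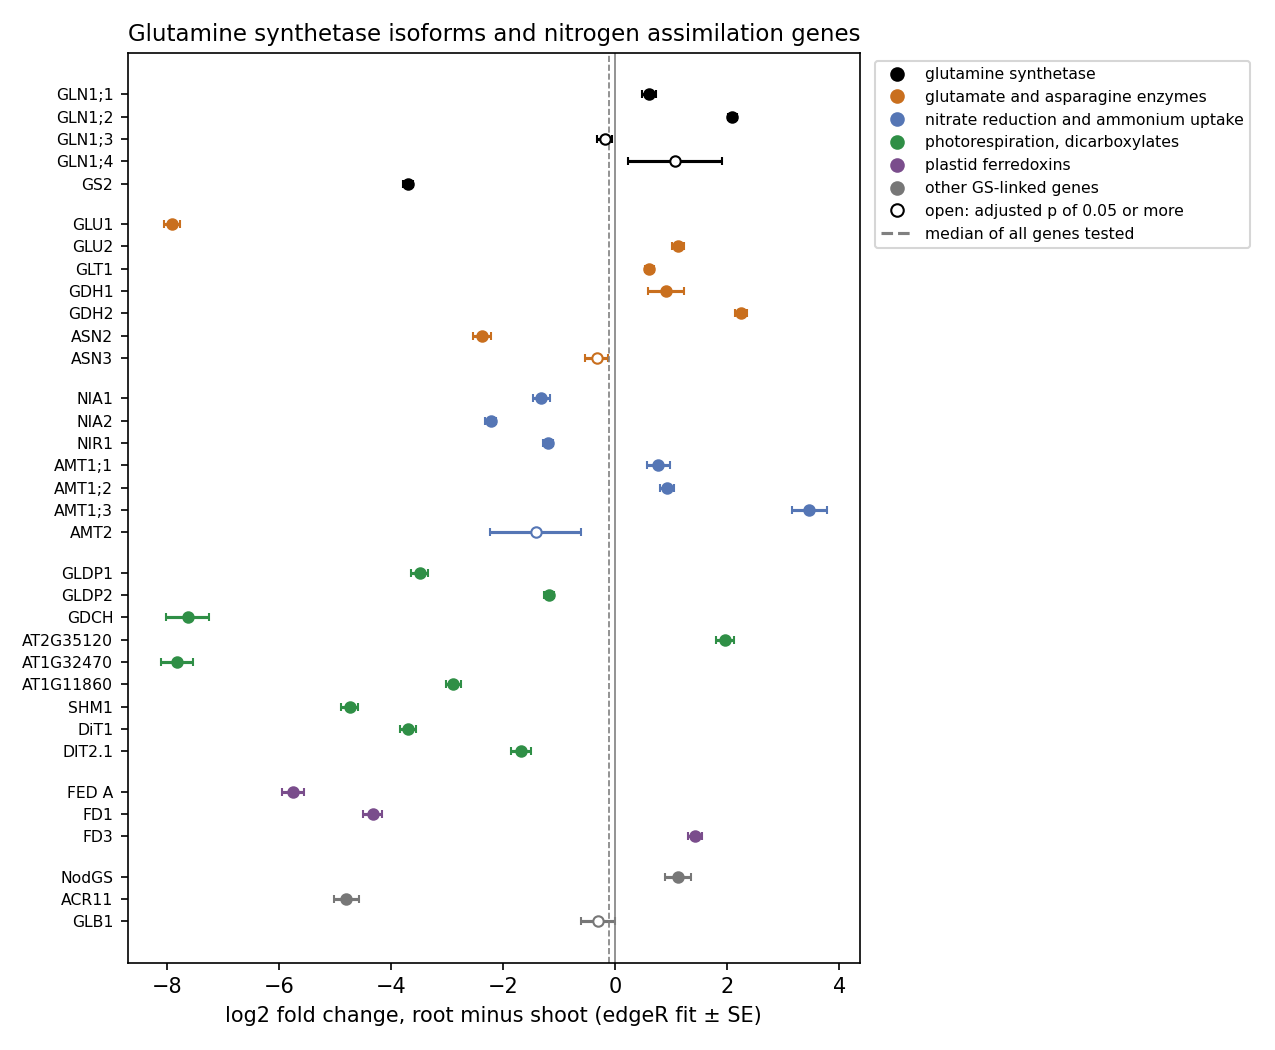
Log2 fold change, root minus shoot, ± SE from edgeR for the 5 isoforms tested and the 29 tested genes around them. Filled symbols have an adjusted p under 0.05 and the dashed line is the median of all genes tested, -0.12. Every list, the isoforms included, holds genes on both sides of 0.

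Enzymes that use or regenerate glutamine and glutamate also differed in direction from isoform to isoform. Of 9 genes 7 were tested, with a median of 0.61. Root was higher for 4 and lower for 2, and 1 was not called. GLU1 averaged 7.18 ± 1.38 CPM in root and 1701 ± 107 in shoot (-7.90 ± 0.14, adjusted p = 1.18e-10). Its paralog GLU2 was higher in root, at 325 ± 23.8 against 149 ± 9.24 CPM (1.12 ± 0.12, adjusted p = 2.01e-05). GLT1, the glutamate synthase that takes electrons from NADH, averaged 1888 ± 115 CPM in root against 1239 ± 115 in shoot (0.61 ± 0.08, adjusted p = 1.64e-04), a log2 fold change of the size of that of GLN1;1. All adjusted p-values of the lists are from edgeR, and all CPM are means ± SD over 4 libraries.

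Glutamate dehydrogenases are mitochondrial enzymes that can release ammonium from glutamate, and both genes tested were called higher in root. GDH2 averaged 986 ± 37.3 CPM in root against 208 ± 23.6 in shoot (2.25 ± 0.10, adjusted p = 4.32e-08). GDH1 had 64.3 ± 25.3 against 33.4 ± 7.07 CPM (0.91 ± 0.33, adjusted p = 0.0477). Its tissues overlapped, and in buffer D root was below shoot, at 29.4 against 43.1 CPM. The call of GDH1 was lost in DESeq2 (0.88, adjusted p = 0.0509) and without either library of buffer A, B or C (0.71 to 0.77, adjusted p = 0.159 to 0.225). GDH3 was not tested, its mean being 3.50 ± 1.61 CPM in root against 1.64 ± 0.865 in shoot.

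Asparagine synthetases take the amide nitrogen of glutamine. ASN2 was lower in root, at 79.7 ± 18.4 against 405 ± 22.6 CPM (-2.37 ± 0.16, adjusted p = 9.37e-07), and ASN3 had a value of -0.33 ± 0.21 (adjusted p = 0.245) that was 0.17 when scaled by totals. ASN1, known for rising in darkness, had 5 and 7 counts in root A and B, 1 in shoot D and 0 elsewhere, and was not tested.

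In the list of nitrate reduction and ammonium uptake 7 of 9 genes were tested, with a median of -1.20. Root was higher for 3 and lower for 3, and 1 was not called. The nitrate reductases NIA1 and NIA2 and the nitrite reductase NIR1, which makes the ammonium used in plastids, were the lower genes, at -1.31 ± 0.14, -2.22 ± 0.10 and -1.20 ± 0.09 (adjusted p = 3.10e-05, 3.01e-08 and 1.86e-06). The 3 higher genes, named after their values were seen, were ammonium transporters of the AMT1 family, AT4G13510, AT1G64780 and AT3G24300, at 0.77 ± 0.21, 0.93 ± 0.13 and 3.46 ± 0.31 (adjusted p = 0.0128, 1.57e-04 and 6.56e-06). The call of AT4G13510 was lost without root A, shoot A or root D (0.59 to 0.68, adjusted p = 0.0511 to 0.0844). Leaving out root A or shoot A takes the same pair of libraries from the tissue difference, so these are nearly the same run. The other ammonium transporters of the list, also named after their values were seen, were not called higher. AMT2 (AT2G38290) was the gene not called, at -1.41 ± 0.81 (adjusted p = 0.201). The untested genes were AT4G28700, with 0 counts in every library, and AT3G24290, with 12 counts over the root libraries and 0 over the shoot libraries.

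Of 9 genes for photorespiratory ammonium release and plastid dicarboxylate exchange, all were tested, 8 were lower in root and 1 was higher, with a median of -3.49. GLDP1, the P subunit of glycine decarboxylase, averaged 165 ± 41.8 CPM in root against 1827 ± 187 in shoot (-3.49 ± 0.15, adjusted p = 2.71e-08), which left 9.03% of the shoot level in root. SHM1, the mitochondrial serine hydroxymethyltransferase, was at -4.74 ± 0.15 and GLDP2, the other P subunit, at -1.18 ± 0.10 (adjusted p = 2.71e-09 and 3.61e-06). The exception, named after its values were seen, was AT2G35120, at 188 ± 32.0 against 48.2 ± 6.29 CPM (1.95 ± 0.16, adjusted p = 3.92e-06).

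Ferredoxins carry electrons to nitrite reductase and to GLU1. FED A and FD1, the leaf forms, were lower in root at -5.75 ± 0.19 and -4.33 ± 0.16 (adjusted p = 4.27e-09 and 1.04e-08), while FD3, the form of roots, was higher at 1.42 ± 0.13 (adjusted p = 7.84e-06). The median of these 3 genes was -4.33. Of 3 genes that carry a glutamine synthetase domain or are linked to the enzyme, 1 was higher, 1 was lower and 1 did not pass, with a median of -0.30. NodGS (AT3G53180), a fusion protein with a domain like that of glutamine synthetase, was higher in root, at 119 ± 39.0 against 52.9 ± 5.95 CPM (1.12 ± 0.23, adjusted p = 0.00252). ACR11, a plastid protein with ACT domains that binds GS2, averaged 14.6 ± 4.94 CPM in root against 405 ± 36.0 in shoot (-4.80 ± 0.23, adjusted p = 4.80e-08). GLB1, the plant PII protein, had a value of -0.30 ± 0.30 (adjusted p = 0.466), which was 0.19 when scaled by totals.

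Genes with the most similar pattern to each isoform were found by Pearson's correlation of log2(CPM + 1) over the 8 libraries, among genes of at least 10 CPM on average. Libraries of a tissue share that tissue, so r mainly reflects the tissue contrast and is given as a description. For GLN1;2 the 3 nearest of 10963 genes were PPC3, a phosphoenolpyruvate carboxylase, RD28, an aquaporin, and RFNR2, a root-type ferredoxin-NADP reductase (r = 0.999, 0.999 and 0.998). For GS2 they were AT4G28780, the potassium channel gene KAT2 and the antenna gene LHCB4.3 (r = 1.00 for each), which all had 0 CPM in root, whereas GS2 had 217 CPM there. For GLN1;1 they were AT3G62360, ATK3, a kinesin, and ACYB-2, a cytochrome b561 (r = 0.995, 0.990 and 0.990). For GLN1;3 they were HEMA2, a glutamyl-tRNA reductase, TIM8, a mitochondrial import protein, and RDR6, an RNA-dependent RNA polymerase (r = 0.981, 0.978 and 0.968). GLN1;4, which rested on few counts, was nearest to ZW9, RR3 and LPLAT2 (r = 0.968, 0.968 and 0.961).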

How the data were processed

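Ribosome footprints on coding sequences were deposited by the authors as raw counts, whole numbers per gene with 1 column per library, per the file headers. The submitters' processing notes list Bowtie2, STAR 2.5.1b and TAIR10 and give them no roles. For the counting program, strand, footprint length filter and reads matching several loci, the rule is not given in the sources used here. Columns were assigned to tissue and buffer by title.

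Counts were fitted in R 4.3.3 with edgeR 4.0.16: filterByExpr by tissue (minimum count 10, minimum total 15), TMM factors, quasi-likelihood F test, terms tissue and buffer, Benjamini-Hochberg adjustment over 15664 genes, called at 0.05. Library sizes behind CPM are totals of the genes tested (99.0 to 99.5% of counts). SE is the absolute log2 fold change over the square root of F and is approximate. The salt trend used MgCl2, Tris, tissue and tissue by MgCl2. DESeq2 1.42.0 was an alternative. Deviations of the root and shoot library of a buffer from their tissue means correlated at -0.0028 to 0.022, all under 0.1, and buffer was kept as a term because the labels name it. Other alternatives were RLE size factors, library totals alone, no filter, no buffer term and leaving out each library.

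Shares were planned per kilobase but are of raw counts, because no coding lengths were in the reference table (RefSeq, TAIR10.1, used for names only, with all 6 isoforms and all 43 listed genes matched). Members, lists and tests were chosen with earlier results of these data known. Named were the 6 isoforms, all genes of the glutamate and asparagine list, the 3 highest of each other list, and the 3 genes nearest to each isoform tested. Depth was 1120218 to 4501213 counts per library.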

Additional observations from a re-analysis of the deposited data

Results flagged for a closer look

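In groups of 4 libraries, a library was examined further where its gap to the nearest other exceeded Dixon's 95% value, over 42 sets of values of the isoforms. For normally distributed values chance alone flags about 1 set in 20, which need not hold for the few counts of GLN1;5. The 5 flags found are not independent, since levels and shares come from the same counts.

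GLN1;5 stood out in the library of buffer C in each tissue. In root C it had 4.29 CPM and 0.167% of the family's counts, with 0 in the other root libraries. In shoot C it had 3.45 CPM and 0.0948% of the family's counts, with 0.265 to 0.634 CPM and 0.00720 to 0.0180% in the other shoot libraries. These values rest on 9 and 11 counts.

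GS2 made up 9.01% of the family's counts in root A and 8.51 to 8.59% in the other root libraries. The counting interval of root A, 8.44 to 9.61%, includes the other values.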

How the results depend on the processing

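The calls of GS2, GLN1;1 and GLN1;2 between the tissues kept their direction and their side of the threshold under every alternative run, and no isoform was called between buffers under any. Values below follow the order GLN1;1 to GLN1;4, then GS2. Leaving out 1 library gave root minus shoot values of 0.54 to 0.63, 2.05 to 2.105, -0.33 to -0.13, 0.66 to 1.45 and -3.75 to -3.68. With buffer as a term, the remaining library of that buffer adds next to nothing to the tissue difference. Leaving out the root or the shoot library of a buffer is thus nearly the same run. Scaled by library totals alone the values were 1.10, 2.59, 0.31 (the reversed GLN1;3), 1.56 and -3.20. ASN3 then reversed to 0.17 and GLB1 to 0.19, and 4767 genes were higher and 2687 lower in root against 2781 and 3534 with TMM. Without the replicate block of buffers 7019 genes were called between the tissues against 6315 with it, and the isoforms stood at 0.61, 2.09, -0.17, 1.02 and -3.70, with no call of an isoform changed.

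Over all genes, 9 were called for any buffer, 24 with DESeq2, 14 with library totals alone, 23 without the filter and 0 to 13 with a library left out. For buffer D minus B 7 were called, 16 with DESeq2, 15 without the filter, 2 with RLE size factors and 0 to 17 with a library left out. For the salt trend by tissue 0 were called in edgeR, 2 without the filter and 0 to 7 with a library left out, and 618 had an unadjusted p under 0.05.

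Small differences between buffers changed sign. For GS2, buffer D minus B was 0.0011 with DESeq2, 0.021 with library totals alone, 0.0027 with RLE and 2.9e-06 without the filter. The salt trend of GLN1;2 was -0.028 with RLE and -0.0026 without the filter. With a library left out, buffer A minus C ran from -0.17 to 0.033 for GLN1;1, -0.61 to 0.93 for GLN1;4 and -0.065 to 0.035 for GS2. Buffer D minus B ran from -0.70 to 0.90 for GLN1;4 and -0.055 to 0.074 for GS2, and the salt trend from -0.55 to 0.12, -0.24 to 0.22 and -1.15 to 3.11 for GLN1;1, GLN1;2 and GLN1;4.

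With cytosolic genes alone in the sum, shares in root and shoot were 11.5 and 21.8% for GLN1;1 and 81.1 and 54.6% for GLN1;2, and 23.1% in shoot for GLN1;3. These shares differ from those of the 6 genes by construction, since GS2 leaves the sum. For the changes of sign and of the counts of called genes, the cause was not tested. Shares per kilobase were not run. Depth limits GLN1;4 and GLN1;5.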
